A study of Mus musculus with 25 samples.

Results

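The nuclear receptors CAR (Nr1i3) and PXR (Nr1i2) and the 3 cytochrome P450 genes Cyp2b9, Cyp2b10 and Cyp2b13 were followed across 25 liver RNA-seq libraries, 1 per male mouse. These 5 genes were found by symbol among the 41388 Ensembl gene identifiers in the files, and all 5 passed the filter on low counts, which kept 14065 genes. They were chosen by symbol after the CPM levels of these libraries were known, in particular the difference in Cyp2b9 between the 2 groups that received the NAMPT vector. Their values in any comparison that uses a NAMPT library are therefore given as a description without a p-value. The 2 comparisons without such libraries were tested.

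CAR and PXR are ligand- and stress-responsive transcription factors of hepatocytes. Each pairs with the retinoid X receptor and switches on enzymes and transporters that oxidise, conjugate and export drugs, steroids and bile acids. Cyp2b10 is the classical CAR target in mouse liver and Cyp3a11 the classical PXR target. Cyp2b9 and Cyp2b13 are close relatives of Cyp2b10 that are known as female-predominant genes in mouse liver, where growth hormone keeps them low in males.

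All mice were C57B/6J males aged 20 weeks, and all carried an AAV8 vector under the thyroxine-binding globulin promoter, which is active in hepatocytes. The vector was either empty (EV) or encoded NAMPT, the enzyme that salvages nicotinamide for NAD+ synthesis. WT mice carried floxed Sirt1 alleles without Cre. LKO mice were their littermates with Cre driven by Albumin, which removes Sirt1 from hepatocytes. The groups were chow WT EV (n = 3), WD WT EV (n = 6), WD WT NAMPT (n = 6), WD LKO EV (n = 5) and WD LKO NAMPT (n = 5), where WD marks 12 weeks of Western diet. By the labels, the chow animals thus differed from WD WT EV by diet alone. A batch or cage that went with diet could not be told apart from it.

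The libraries held 20166175 to 32937326 counts. Levels are given as CPM, read counts scaled to the TMM-adjusted size of the library, unless stated otherwise. No difference in Sirt1 was called by limma for the libraries labelled LKO. It stood at 8.57 ± 1.34 CPM (SD, n = 5) in WD LKO EV against 8.86 ± 0.573 CPM (SD, n = 6) in WD WT EV (adjusted p = 0.990). With NAMPT, the 5 libraries labelled LKO stood at 9.82 ± 1.36 CPM of Sirt1 and the 6 WT libraries at 8.58 ± 0.617 CPM (SD). Which part of the gene Cre removes is not given in the sources used here, and whether counts over the whole gene would show it was not tested, so the genotype is given below as labelled only. Nampt stood at 47.4 ± 6.46 CPM in WD WT EV and 59.5 ± 10.6 CPM in WD WT NAMPT (SD, n = 6 each). It stood at 56.1 ± 12.0 CPM in the WD LKO EV and 79.9 ± 28.4 CPM in the WD LKO NAMPT libraries (SD, n = 5 each), and neither difference passed the limma test (adjusted p = 0.144 and 0.403). All 5 hepatocyte markers (Alb, Ttr, Apoa1, Apob, Tat) were abundant, at a summed 49831 to 79676 CPM per library. No batch, cage or hour was given by the labels.

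The 3 Cyp2b genes lie in tandem on the plus strand of chromosome 7 (GRCm38). Cyp2b10 (ENSMUSG00000030483) spans 25897620 to 25926624 with 10 exonic blocks, Cyp2b13 (ENSMUSG00000040583) spans 26061495 to 26096196 with 9, and Cyp2b9 (ENSMUSG00000040660) spans 26173411 to 26210661 with 9. Nr1i2 (ENSMUSG00000022809) lies on the minus strand of chromosome 16, at 38248323 to 38294824. Nr1i3 (ENSMUSG00000005677) lies on the plus strand of chromosome 1, at 171213970 to 171220701. Its annotated exons overlap those of Tomm40l, on the opposite strand, over 2268 of 4414 bases. Use of the strand in counting is not given in the sources used here, so reads there may be lost or misassigned and the level per length of Nr1i3 is uncertain.

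The sequences just upstream of the Cyp2b genes are shown because Cyp2b9 and Cyp2b13 varied together more closely than either did with Cyp2b10 (below). They are taken from RefSeq (GRCm38.p6, plus strand, 5′ to 3′), in which all 5 genes were found. Capitals mark the letters AGGTCA, the core half-site bound by many nuclear receptors. The windows are chr7:26173159-26173408 for Cyp2b9, chr7:26061245-26061494 for Cyp2b13 and chr7:25897408-25897619 for Cyp2b10, the last stopping where the first exon of the files' annotation begins.
Cyp2b9: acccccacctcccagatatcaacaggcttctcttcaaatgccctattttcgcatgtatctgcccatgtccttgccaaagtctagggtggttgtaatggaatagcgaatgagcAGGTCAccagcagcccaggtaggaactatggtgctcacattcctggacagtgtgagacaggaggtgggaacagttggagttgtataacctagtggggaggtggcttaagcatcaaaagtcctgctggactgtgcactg
Cyp2b13: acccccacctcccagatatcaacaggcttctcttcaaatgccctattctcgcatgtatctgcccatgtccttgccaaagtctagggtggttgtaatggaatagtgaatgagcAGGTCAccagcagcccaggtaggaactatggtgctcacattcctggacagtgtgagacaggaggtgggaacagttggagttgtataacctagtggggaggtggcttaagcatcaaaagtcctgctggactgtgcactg
Cyp2b10: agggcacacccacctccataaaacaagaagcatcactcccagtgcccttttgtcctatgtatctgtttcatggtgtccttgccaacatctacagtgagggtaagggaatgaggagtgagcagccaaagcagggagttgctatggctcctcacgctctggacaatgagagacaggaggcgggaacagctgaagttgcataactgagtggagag

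Over the 250 bases before the RefSeq start, Cyp2b9 and Cyp2b13 were identical at 248 positions. The differences were T48C and C104T, given as the Cyp2b9 base, the position from 1 at the 5′ end of the window, and the Cyp2b13 base. Cyp2b10 matched each of them at 179 of 240 aligned positions (74.6%). This comparison and the search below used all 250 bases of the Cyp2b10 window, more than the 212 printed. AGGTCA began 138 bases before the start in Cyp2b9 and in Cyp2b13 and was found on neither strand of the Cyp2b10, Nr1i2 and Nr1i3 windows. Of 32851 promoter windows of that length, 14% held it on either strand. None of the 5 windows held AGTTCA (11.8% of promoters), TTCNNNGAA (7.02%), CAAAGTCCA (0.384%) or TATAAA (12.4%), all searched on both strands. A match is a string of letters and does not show binding. Bases farther upstream were not searched, so a missing match holds for these windows only.

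The transcripts are alike as well, which bears on how reads were assigned. Cyp2b9 and Cyp2b13 were identical at 91.7% of aligned transcript bases, Cyp2b9 and Cyp2b10 at 87.6%, and Cyp2b10 and Cyp2b13 at 88.2%. The reads were 50 bases long and only unambiguous ones were counted. Of all 50-base windows of Cyp2b9, 11.2% also occurred in a transcript of another gene, against 8.70% for Cyp2b10 and 27.3% for Cyp2b13. Nr1i2 shared none and Nr1i3 shared 63.6%, all of them with Tomm40l. Most bases of Cyp2b9 and Cyp2b10 could thus be counted. Of the 3 Cyp2b genes Cyp2b13 shared the most, and of the 5 genes Nr1i3 did.

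Both receptors were expressed in every library, and neither passed the test between chow and Western diet. Nr1i3 measured 37.2, 45.8 and 22.2 CPM in the 3 chow WT EV libraries, and its lowest, median and highest values in WD WT EV were 39.6, 50.3 and 65.7 CPM. The groups overlapped. The fitted log2 difference was 0.42 ± 0.23 (SE; 95% interval -0.05 to 0.90; adjusted p = 0.194). The exact two-sided permutation test gave p = 0.0476 (0.159 after adjustment over 10 such tests). Tomm40l, whose exons overlap those of Nr1i3, went the other way, from 5.04 ± 0.752 CPM in chow WT EV (SD, n = 3) to 3.67 ± 0.400 CPM in WD WT EV (SD, n = 6; log2 difference -0.49 ± 0.16, adjusted p = 0.0330).

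Nr1i2 measured 41.7, 44.5 and 62.0 CPM in chow WT EV. Its lowest, median and highest values in WD WT EV were 38.6, 45.6 and 73.7 CPM, so the chow values lay inside the Western diet range. The log2 difference was 0.05 ± 0.15 (SE; 95% interval -0.26 to 0.35; adjusted p = 0.856). Its sign turned negative with the edgeR and DESeq2 fits, so no direction is given for Nr1i2.

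Cyp2b10 fell with Western diet and was the only one of the 5 genes that passed the limma test. It measured 11.5, 16.4 and 13.02 CPM in chow WT EV. In WD WT EV its lowest, median and highest values were 0.231, 2.69 and 3.39 CPM, all below the lowest chow library. The fitted change was -2.74 ± 0.34 on the log2 scale (SE), a level 6.69-fold lower (adjusted p = 5.2e-06). The call held in every alternative fit and without any single library. The exact permutation test gave p = 0.0238, the smallest that 3 against 6 libraries allow (0.119 after adjustment over 10 tests). Of all 14065 genes tested, 22% were called in this comparison and 12% were called lower. In 8.45% of all genes every WD WT EV library lay below every chow library. Among the 5 genes 20% were called. With edgeR's quasi-likelihood test, edgeR's exact test and DESeq2, 3 of the 5 were called, against 9.40%, 10.4% and 12.4% of all genes, but the added pair, Cyp2b9 and Cyp2b13, passed the filter only through Western diet libraries and the count supports nothing about the 5. Without chow replicate 1 or 2, 1 of the 5 was called, against 6.89% and 5.95% of all genes. Groups that did not overlap were found for 2 of the 5 (Cyp2b10 and Cyp2b9) and for 16.1% of all genes. The hepatocyte markers summed to 68669 to 78378 CPM in chow WT EV and 56112 to 73431 CPM in WD WT EV, and 1 of 5 was called lower (Tat, with 4 of 5 fitted values negative). Of the other cell type lists, 1 of 6 macrophage markers (Cd5l, 5 of 6 positive), 1 of 5 stellate cell markers (Lrat, 3 of 5 positive) and 1 of 4 sinusoidal endothelial markers (Lyve1, 4 of 4 positive) were called higher, and none of the 4 cholangiocyte, 3 neutrophil and lymphocyte or 6 pericentral markers tested was called. Their part in these differences was not tested. In bulk tissue, fewer cells of a type and less RNA per cell cannot be told apart.

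Cyp2b9 was low in all chow livers and spread over 105-fold among the WD WT EV livers. It measured 0.579, 0.801 and 0.473 CPM in chow WT EV, from 12 to 18 counts per library. The 6 WD WT EV libraries held 169.5, 17.4, 142.2, 35.5, 1.61 and 5.91 CPM (replicates 1, 2, 4, 6, 7 and 8). All 6 lay above the highest chow library, as was the case for 7.66% of all genes, while 10.1% were called higher. The fitted log2 difference was 5.10 ± 2.54 (SE; 95% interval -0.13 to 10.3), which did not pass the limma test (adjusted p = 0.154). The exact permutation test gave p = 0.0238, the smallest possible (0.119 adjusted). All 3 chow libraries lay under 1 CPM, so Cyp2b9 passed the filter through Western diet libraries alone and the p-values and the lack of overlap are those of a gene kept because it was high there. The call depended on the tool, since edgeR's quasi-likelihood test, edgeR's exact test and DESeq2 gave log2 differences of 6.65, 6.64 and 6.65 with adjusted p = 0.00622, 0.000115 and 1.9e-08. Summed over libraries and set against their summed sizes, Cyp2b9 counts were 98.6 times as frequent in WD WT EV as in chow (95% interval 73.3 to 136, for counting error only). That ratio was 61.6 without WD WT EV replicate 1, which gave 4018 of the 8332 counts.

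Cyp2b13 followed Cyp2b9 at a far lower level. It gave 0, 4 and 1 counts in the 3 chow libraries (0, 0.178 and 0.0394 CPM), 2 of them at or under a floor of 3 counts. In WD WT EV the replicates measured 4.94, 0.113, 3.66, 1.01, 0.124 and 0.185 CPM (replicates 1, 2, 4, 6, 7 and 8), so the highest values fell in the libraries where Cyp2b9 was highest. The groups overlapped, and the log2 difference of 2.80 ± 1.77 (SE) did not pass the limma test (adjusted p = 0.268). Cyp2b13 exceeded 1 CPM in WD WT EV libraries and in those labelled LKO only and passed the filter through them, so calls made for it by other tools (adjusted p = 0.0489, 0.0214 and 0.00487 with edgeR's quasi-likelihood test, edgeR's exact test and DESeq2) are given as a description and support no direction. As chow lay at the floor, the fitted value is no bound on the fold. The ratio of summed counts, again relative to summed library sizes, was 23.3 (95% interval 9.84 to 72.5, for counting error only). It was 13.4 without WD WT EV replicate 1, 15.5 without chow replicate 1 and 80.2 without chow replicate 2, which held 4 of the 5 chow counts. The other family members measured, Cyp2b19 and Cyp2b23, did not exceed 0.321 and 0.131 CPM in any library.

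**Figure D1:**
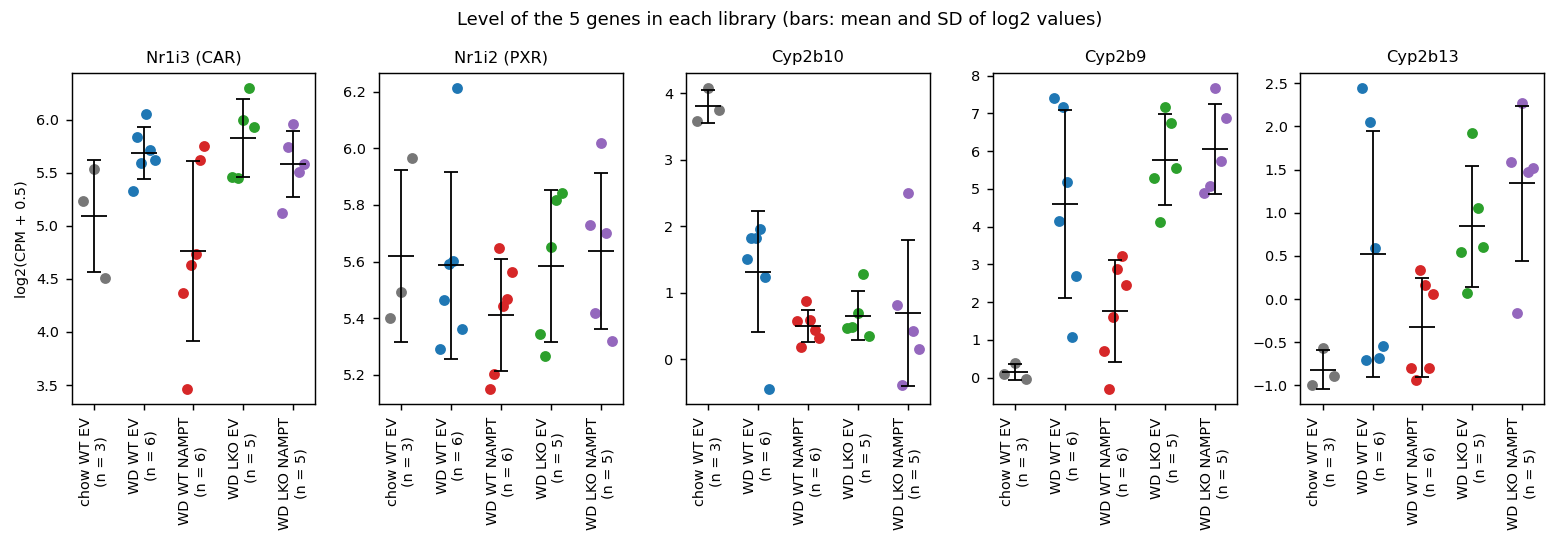
Level of each gene in every library as log2(CPM + 0.5), 1 panel per gene, with points for libraries, bars for the mean and SD of the log2 values, and group sizes under the axis. Cyp2b10 is highest in the 3 chow libraries, Cyp2b9 spreads from 1.61 to 169.5 CPM within WD WT EV, and Nr1i2 is at a like level in all groups.

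Per length, the order of the group means changed with diet, though the mean of Cyp2b9 had a wide spread. In chow WT EV, Nr1i2 came highest at 19.3 ± 4.31 RPKM (SD, n = 3). Nr1i3 at 7.94 ± 2.70 and Cyp2b10 at 6.45 ± 1.18 RPKM did not differ beyond their spread, and Cyp2b9 stood at 0.329 ± 0.0892 RPKM. In WD WT EV, Cyp2b9 averaged 33.1 ± 39.5 RPKM (SD, n = 6), a mean that its spread did not separate from Nr1i2 at 19.1 ± 5.01 RPKM or Nr1i3 at 11.7 ± 2.01 RPKM. Cyp2b10 stood at 1.10 ± 0.551 and Cyp2b13 at 0.891 ± 1.12 RPKM. By its mean per length, Cyp2b9 was the most abundant Cyp2b gene in each Western diet group, and Cyp2b10 in the chow group. Single libraries departed from this. Cyp2b9 stood below Cyp2b10 in WD WT EV replicate 7 (0.859 against 0.880 RPKM) and WD WT NAMPT replicate 2 (0.163 against 0.301 RPKM).

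The libraries labelled LKO with empty vector were compared with WD WT EV, from which they differ by the labelled genotype. None of the 5 genes was called by limma, none had an unadjusted p under 0.05, and none was called by edgeR or DESeq2. Over all genes the share called was 0.00711%, and the groups did not overlap in 0.59% (0.263% with the libraries labelled LKO higher and 0.327% lower) and in none of the 5. Cyp2b9 measured 38.8, 16.8, 142.3, 107.2 and 46.8 CPM in WD LKO EV, inside the range of WD WT EV. Its log2 difference was 1.16 ± 0.77 (SE; 95% interval -0.42 to 2.75; adjusted p = 0.897). Cyp2b10 measured 0.885, 0.902, 1.13, 1.93 and 0.774 CPM, with a log2 difference of -0.95 ± 0.50 (95% interval -1.98 to 0.07; adjusted p = 0.823). The intervals leave room for sizeable differences in both genes. Nr1i3 measured 43.5, 43.3, 63.5, 78.0 and 60.6 CPM and Nr1i2 40.1, 37.9, 49.8, 55.9 and 56.8 CPM. Their intervals were narrower, at -0.34 to 0.54 and -0.28 to 0.29 on the log2 scale. For Cyp2b13 the log2 difference of 1.46 ± 0.86 changed sign with the edgeR and DESeq2 fits, and was 0.42 without WD WT EV replicate 2 and 2.18 without replicate 1. That of Cyp2b9 was 0.55 without WD WT EV replicate 7 and 1.82 without replicate 1.

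In WT livers that received NAMPT, the level of Cyp2b9 lay at the low end of the Western diet range. The 6 WD WT NAMPT libraries measured 1.15, 0.307, 2.57, 6.90, 8.76 and 5.01 CPM, a mean of 4.12 ± 3.34 CPM (SD, n = 6) against 62.0 ± 74.1 CPM in WD WT EV. The groups overlapped through WD WT EV replicates 7 and 8, and the fitted log2 difference was -2.81 ± 1.20 (SE), or -2.16 without WD WT EV replicate 1 and -3.43 without replicate 7. Cyp2b10 had its lowest, median and highest values at 0.637, 0.925 and 1.34 CPM, a log2 difference of -1.02 ± 0.51 from WD WT EV. The groups overlapped through WD WT EV replicate 8 alone, which held 0.231 CPM, as the next lowest held 1.86 CPM. Cyp2b13 measured 0.0236 to 0.768 CPM, with a log2 difference of -0.67 ± 1.11 that ranged from -1.71 without WD WT EV replicate 2 to 0.06 without replicate 1, and 3 of the 6 libraries were at or under the floor. Over 9 alternative fits the log2 difference of Cyp2b13 ranged from -2.89 to -0.39. All 5 genes overlapped between these groups, against 0.96% of all genes that did not (0.37% higher and 0.59% lower).

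The level of CAR was also lower in most of these libraries, and that of PXR was much the same. Nr1i3 measured 20.2, 10.5, 24.3, 26.2, 48.6 and 53.4 CPM in WD WT NAMPT (replicates 1 to 6), so 4 libraries lay below the lowest WD WT EV library and the other 2 lay inside that group's range. The fitted log2 difference was -0.95 ± 0.22 (SE). Tomm40l did not pass the test in this comparison (0.16 ± 0.16, adjusted p = 0.513). Nr1i2 measured 34.9 to 49.6 CPM, with a log2 difference of -0.09 ± 0.14. Some pericentral hepatocyte markers, of the zone where CAR targets are strongest, were also low in these libraries. The summed level of 6 such genes was 1851 to 8124 CPM in WD WT NAMPT against 5745 to 9530.3 CPM in WD WT EV, and 2 of the 6 fell (Cyp2e1 and Oat), with all 6 fitted values negative. Over all genes 13.4% were called in this comparison, 7.67% higher and 5.77% lower. In the 4 libraries with the lowest Nr1i3 it was 3188, 1851, 3748 and 3697 CPM (replicates 1 to 4). Cyp2e1 made up 55.2% to 78.5% of the sum in every library and is also among the genes most like Nr1i3 (below). Without it the other 5 markers summed to 1122, 773, 1679 and 1212 CPM in those 4 libraries and to 2306 and 2056 CPM in replicates 5 and 6, against 1887 to 2634 CPM in WD WT EV. Glul and Oat made up most of that remainder. The markers did not all follow, since in replicate 3 Glul (929 CPM), Slc1a2 (149.7 CPM), Axin2 (9.15 CPM) and Lgr5 (6.31 CPM) lay inside the WD WT EV range, as Axin2 did in replicates 2 and 4. Of 6 Kupffer cell and macrophage markers, 3 rose (Cd5l, Adgre1 and Marco), with summed levels of 218 to 628 CPM against 230.2 to 341 CPM, all 6 fitted values were positive, and none of the 6 was at 0. Of the remaining lists, 1 of 5 stellate cell markers (Des, 4 of 5 positive) and 1 of 3 neutrophil and lymphocyte markers (S100a9, 3 of 3 positive) were called higher, 1 of 4 sinusoidal endothelial markers (Clec4g, 2 of 4 negative) was called lower, and none of 5 hepatocyte or 4 cholangiocyte markers was called. The part of these cell types and zones in the levels of the receptors was not tested.

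**Figure D2:**
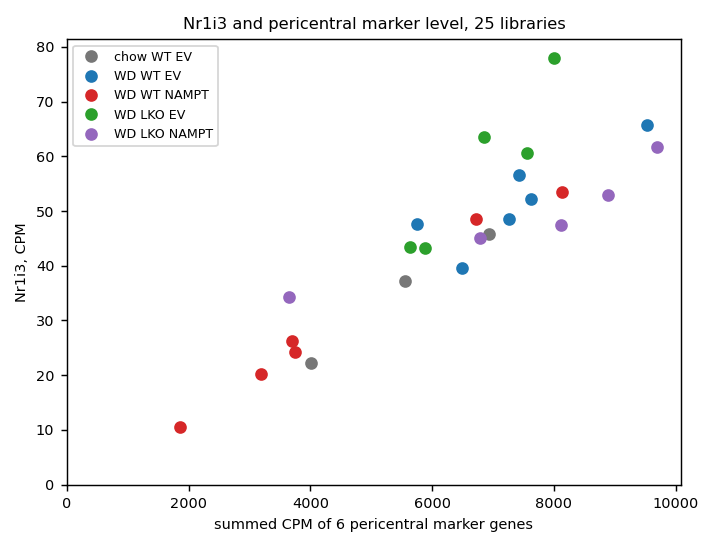
Nr1i3 in CPM against the summed CPM of 6 pericentral marker genes (Glul, Cyp2e1, Oat, Axin2, Lgr5, Slc1a2), 1 point per library and 1 color per group, with both axes from 0. WD WT NAMPT replicate 2 is lowest on both axes, at 10.5 CPM of Nr1i3 and 1851 CPM of markers.

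In the libraries labelled LKO, all 5 genes overlapped between the NAMPT and EV groups, against 1.15% of all genes that did not (0.505% higher and 0.647% lower). WD LKO NAMPT libraries held 29.1, 33.1, 202.4, 52.8 and 116 CPM of Cyp2b9, overlapping WD LKO EV (log2 difference 0.09 ± 0.78, SE). The same 5 libraries held 34.3, 53.0, 61.8, 45.1 and 47.5 CPM of Nr1i3 (-0.20 ± 0.23) and 52.5, 42.2, 64.3, 51.5 and 39.4 CPM of Nr1i2 (-0.03 ± 0.15). Cyp2b13 measured 2.51, 0.395, 4.32, 2.28 and 2.37 CPM (-0.18 ± 0.71), although its mean of 2.38 CPM was above the 1.48 CPM of WD LKO EV. Cyp2b10 measured 1.26, 0.263, 5.19, 0.846 and 0.611 CPM. The weighted fit put it lower by -0.84 ± 0.65, whereas its mean of 1.63 CPM exceeded the 1.12 CPM of WD LKO EV through replicate 3, so no direction is given. Leaving out single libraries took the log2 difference of Cyp2b9 from -0.42 to 0.50 and that of Cyp2b13 from -0.51 to 0.86.

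Set against each other, the 2 NAMPT groups did not overlap in Cyp2b9. The lowest library labelled WD LKO NAMPT held 29.1 CPM and the highest WD WT NAMPT library 8.76 CPM, and the fitted log2 difference was 4.07 ± 1.21 (SE). This is the contrast in which the gene had stood out before, so the value is a description. The groups did not overlap in 1.39% of all genes, with the libraries labelled LKO above in 0.789% and below in 0.604%. Cyp2b13 differed by 1.95 ± 1.001 (2.995 without WD LKO NAMPT replicate 2 and 3.29 without quality weights) and Nr1i3 by 0.85 ± 0.24 on the log2 scale with overlapping groups, Nr1i2 by 0.06 ± 0.15. Cyp2b10 differed by -0.77 ± 0.66, while its means pointed the other way (1.63 and 0.932 CPM). The difference of the NAMPT effects between genotypes was 2.90 ± 1.44 for Cyp2b9, 0.75 ± 0.32 for Nr1i3, 0.49 ± 1.32 for Cyp2b13, 0.18 ± 0.83 for Cyp2b10 and 0.06 ± 0.20 for Nr1i2. Without single libraries these ranged from 2.25 to 3.52 for Cyp2b9, 0.56 to 0.97 for Nr1i3, -0.23 to 1.54 for Cyp2b13 and -0.04 to 0.93 for Cyp2b10. Over 8 alternative fits they ranged from 2.60 to 5.24, 0.49 to 0.75, 0.35 to 3.33 and 0.04 to 1.83 in the same order. These comparisons share libraries and are not independent of each other.

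**Figure D3:**
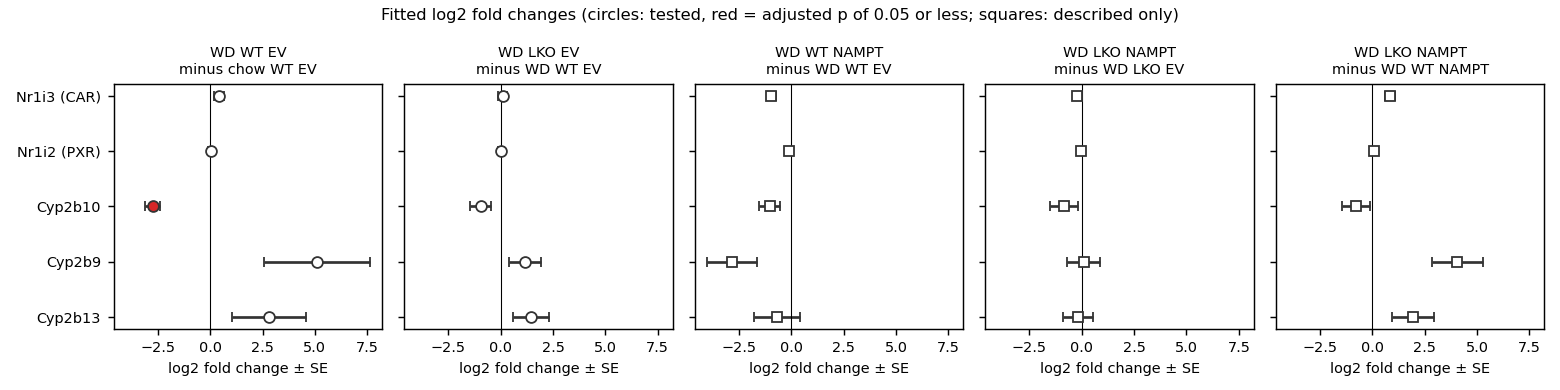
Fitted log2 fold changes with SE (x axis) for the 5 genes (rows) in 5 comparisons (panels). Circles mark tested values, filled in red at an adjusted p of 0.05 or less, and squares mark values described without a test. Cyp2b10 at -2.74 in the diet panel is the only filled circle, and Cyp2b9 lies at 4.07 in the panel that compares the NAMPT groups.

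Over the 22 Western diet libraries, Cyp2b9 and Cyp2b13 varied together from animal to animal. Pearson's r of log2(CPM + 0.5) was 0.85 and Spearman's rho 0.87, and r was 0.83 without the 2 libraries farthest from the Cyp2b9 median. With group means removed, r was 0.81. Cyp2b10 gave r = 0.38 with Cyp2b9 and 0.43 with Cyp2b13, or 0.47 and 0.51 with group means removed. Cyp2b9 and Nr1i3 gave r = 0.67, or 0.42 without the 2 farthest libraries. Of Cyp2b13's 50-base windows 10.8% also occur in Cyp2b9. In the 14 libraries with at least 300 counts of Cyp2b9, Cyp2b13 gave 0.652 to 8.63 counts per 100 counts of Cyp2b9 (median 2.40), a ratio that was not constant. Whether part of the Cyp2b13 counts came from Cyp2b9 transcripts was not tested.

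**Figure D4:**
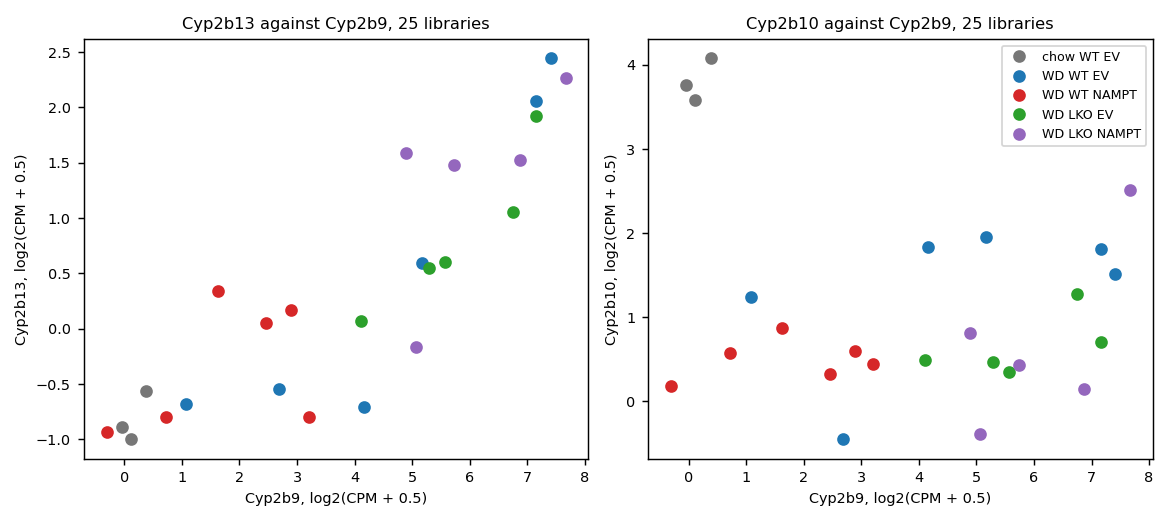
Cyp2b13 (left) and Cyp2b10 (right) against Cyp2b9, both axes as log2(CPM + 0.5), 1 point per library and 1 color per group. Cyp2b13 is higher where Cyp2b9 is higher across the Western diet libraries (r = 0.85, n = 22), while the 3 chow libraries sit apart at high Cyp2b10 and low Cyp2b9.

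The genes whose levels over all 25 libraries were most like each member are given by Pearson's r of log2(CPM + 0.5). For Cyp2b9 they were Plscr2 (r = 0.89), Gbe1, the glycogen branching enzyme (0.88), and Slc22a29, an organic anion transporter family gene (0.88). Cyp2b13 was most like Cyp2b9 itself (0.88), then Kdsr, an enzyme of sphingolipid synthesis (0.86), and Nudt4 (0.84). For Cyp2b10 they were Rdh11, a retinol dehydrogenase (0.88), and the sterol synthesis genes Idi1 (0.88) and Cyp51 (0.88). Much of that likeness was the gap between diets, as Idi1 averaged 93.2 CPM in chow and 7.02 CPM in WD WT EV, and over the 22 Western diet libraries its r with Cyp2b10 was 0.66. Nr1i3 was most like Sord, sorbitol dehydrogenase (0.94), the mitochondrial carrier Slc25a16 (0.93) and the pericentral P450 Cyp2e1 (0.93). With group means removed, r between Nr1i3 and Cyp2e1 was also 0.93. Nr1i2 was most like Fbxo31 (0.82), Sirt2, a deacetylase (0.81), and Plekhg3 (0.80). These are descriptions over libraries that share groups and size factors.

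A list of 42 genes known as CAR or PXR targets was read from the same fit, of which 39 were tested. With Western diet, 14 fell and 4 rose (46.2% called, against 22% of all genes, 10.1% higher and 12% lower). The median log2 difference was -0.35 over the list and -0.00 over all genes. Among those that fell, Cyp3a11, the main PXR-induced P450 of mouse liver, went from 9198 ± 553 to 2035 ± 587 CPM (log2 difference -2.21 ± 0.21, adjusted p = 1.1e-07). Cyp3a44 went from 18.3 ± 1.69 to 4.02 ± 0.956 CPM (-2.17 ± 0.23, adjusted p = 3.8e-07), and 26.5% of its 50-base windows occur in other genes. Cyp3a41a went from 3.14 ± 0.392 to 0.648 ± 0.0973 CPM, but 98.6% of its 50-base windows occur in other genes, so its counts are uncertain. Its WD WT EV mean lay under 1 CPM, so between these groups it passed the filter through chow libraries and its call supports no direction. Both genes share windows with Cyp3a11, and whether Cyp3a11 reads entered their counts was not tested. The calls of these 3 genes held in every alternative and without any single library. Alas1, which starts haem synthesis, rose from 104 ± 63.2 to 190.9 ± 69.3 CPM, Cyp2c38 from 25.5 ± 6.99 to 69.5 ± 37.9 CPM, and Sult1e1, the estrogen sulfotransferase, from 0.0789 ± 0.137 to 0.705 ± 0.470 CPM (adjusted p = 0.00413, 0.0427 and 0.0403). Sult1e1 lay at or near the floor in chow and passed the filter through Western diet libraries alone, so its call supports no direction. All 4 rises were lost without chow replicate 1 or 2, when 9 targets were called, all lower, and with edgeR's quasi-likelihood test, when 7 were called. Calls over all genes also dropped, from 3101 to 966, 834 and 1322.

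In the libraries labelled LKO with empty vector no target was called against WD WT EV (4 of 39, and 6.33% of all genes, had an unadjusted limma p under 0.05, and edgeR and DESeq2 called none). The smallest unadjusted p belonged to Cyp3a11, at 1126 against 2035 CPM in groups that did not overlap (log2 difference -0.79 ± 0.18, adjusted p = 0.177), and Slco1a4, a bile salt and drug transporter, at 49.1 against 29.0 CPM (0.76 ± 0.24, adjusted p = 0.551). The groups did not overlap, with the libraries labelled LKO lower, in 1 of the 39 targets and in 0.327% of all genes.

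With NAMPT in WT livers, 11 targets fell and 2 rose (33.3% called, against 13.4% of all genes, 7.67% higher and 5.77% lower), with a list median of -0.19. In the same comparison all 6 pericentral markers were negative (2 called) and all 6 macrophage markers positive (3 called), as given above. The part of these markers in the target levels was not tested. The largest falls were in the Cyp2c cluster, whose enzymes oxidise drugs and fatty acids. Cyp2c54 went from 162 ± 94.8 to 79.7 ± 90.4 CPM (-1.97 ± 0.58), Cyp2c37 from 343 ± 121 to 152 ± 128 CPM (-1.74 ± 0.42) and Cyp2c50 from 762 ± 247 to 427 ± 347 CPM (-1.36 ± 0.37; adjusted p = 0.0270, 0.0137 and 0.0198). These 3 share 18.3% to 30.1% of their windows with other genes, chiefly each other. Of 9 alternatives, 7, 6 and 7 did not call Cyp2c54, Cyp2c37 and Cyp2c50, nor did 5, 2 and 4 of 12 analyses without 1 library. Gadd45b, a stress-response gene, rose from 0.831 ± 0.684 to 2.63 ± 1.73 CPM and Abcb1a, a drug efflux pump, from 4.92 ± 2.45 to 7.73 ± 3.20 CPM (adjusted p = 0.0167 and 0.0431). Of 9 alternatives, 5 did not call Gadd45b and 7 did not call Abcb1a, and neither was called with the quasi-likelihood test or without quality weights. The Abcb1a call was also lost in 8 of 12 analyses without 1 library. Cyp3a11 was not called. The count was 2 without sample quality weights, 3 with edgeR's quasi-likelihood test, 2 without WD WT EV replicate 2 or without WD WT NAMPT replicate 3, 4 without WD WT EV replicate 6 and 7 without WD WT NAMPT replicate 2. In these 4 analyses without a library, in the order given, the calls over all genes went from 1890 to 291, 132, 628 and 741.

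In the libraries labelled LKO, NAMPT gave no called target, where 0.00711% of all genes were called (2 targets, and 9.63% of all genes, had an unadjusted limma p under 0.05, and edgeR and DESeq2 called no target). Of the 39 fitted values 32 were positive, with a median of 0.11 against 0.02 over all genes. In the same comparison all 6 pericentral markers were positive (median 0.17) and all 4 cholangiocyte markers negative (median -1.25, 3 with an unadjusted p under 0.05), none of them called, and their part was not tested. Cyp3a11 stood at 2066 against 1126 CPM (log2 difference 0.57 ± 0.19, adjusted p = 0.323) and Aldh1a7 at 329 against 281 CPM (0.22 ± 0.10, adjusted p = 0.502). Between the NAMPT groups, 9 targets were higher in the libraries labelled LKO and none was lower (23.1% called, against 7.96% of all genes, 4.18% higher and 3.78% lower). The largest were Cyp2c37 at 322 ± 186 against 152 ± 128 CPM (1.63 ± 0.45), Cyp2c38 at 94.9 ± 40.1 against 27.3 ± 13.6 CPM (1.44 ± 0.39) and Cyp2c39 at 6.11 ± 1.74 against 2.32 ± 1.03 CPM (1.27 ± 0.30; adjusted p = 0.0329, 0.0304 and 0.0225). The Cyp2c37 call was lost in 7 of 9 alternatives and 7 of 11 analyses without 1 library, that of Cyp2c38 in 3 and 7, and that of Cyp2c39 in 3 and 5. In the same comparison 4 of 6 pericentral markers were higher (Glul, Cyp2e1, Oat and Slc1a2), 1 of 6 macrophage markers was lower (Marco, all 6 negative) and 1 of 5 hepatocyte markers was lower (Tat, 2 of 5 negative). No marker of the other 4 lists was called, and the part of these markers was not tested. That count of 9 rested on single libraries and fell to 0 without WD LKO NAMPT replicate 2 or 5, and to 3, 1 and 2 without WD WT NAMPT replicate 2, WD WT NAMPT replicate 3 and WD LKO NAMPT replicate 3. It was 14 to 16 without WD WT NAMPT replicate 5 or 6 or WD LKO NAMPT replicate 1 or 4, and 0 when only these groups entered the fit. The calls over all genes moved likewise, from 1120 to 0 and 2 without WD LKO NAMPT replicate 2 and 5, and to 149, 78 and 200 without WD WT NAMPT replicate 2, WD WT NAMPT replicate 3 and WD LKO NAMPT replicate 3. They rose to 1954 and 2290 without WD WT NAMPT replicate 5 and 6, and to 2266 and 1815 without WD LKO NAMPT replicate 1 and 4. The difference of the NAMPT effects between genotypes was called for none of the 39 genes with limma or edgeR's quasi-likelihood test and for 1 with DESeq2. Over all genes limma called 0.00711% and DESeq2 0.0924%. Of the 39, 17 had an unadjusted limma p under 0.05, as did 21.2% of all genes. Aldh1a1, at 1.12 ± 0.24, and Ugt2b34, at 0.74 ± 0.19, had the smallest unadjusted p (adjusted p = 0.0574 and 0.0745).

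**Figure D5:**
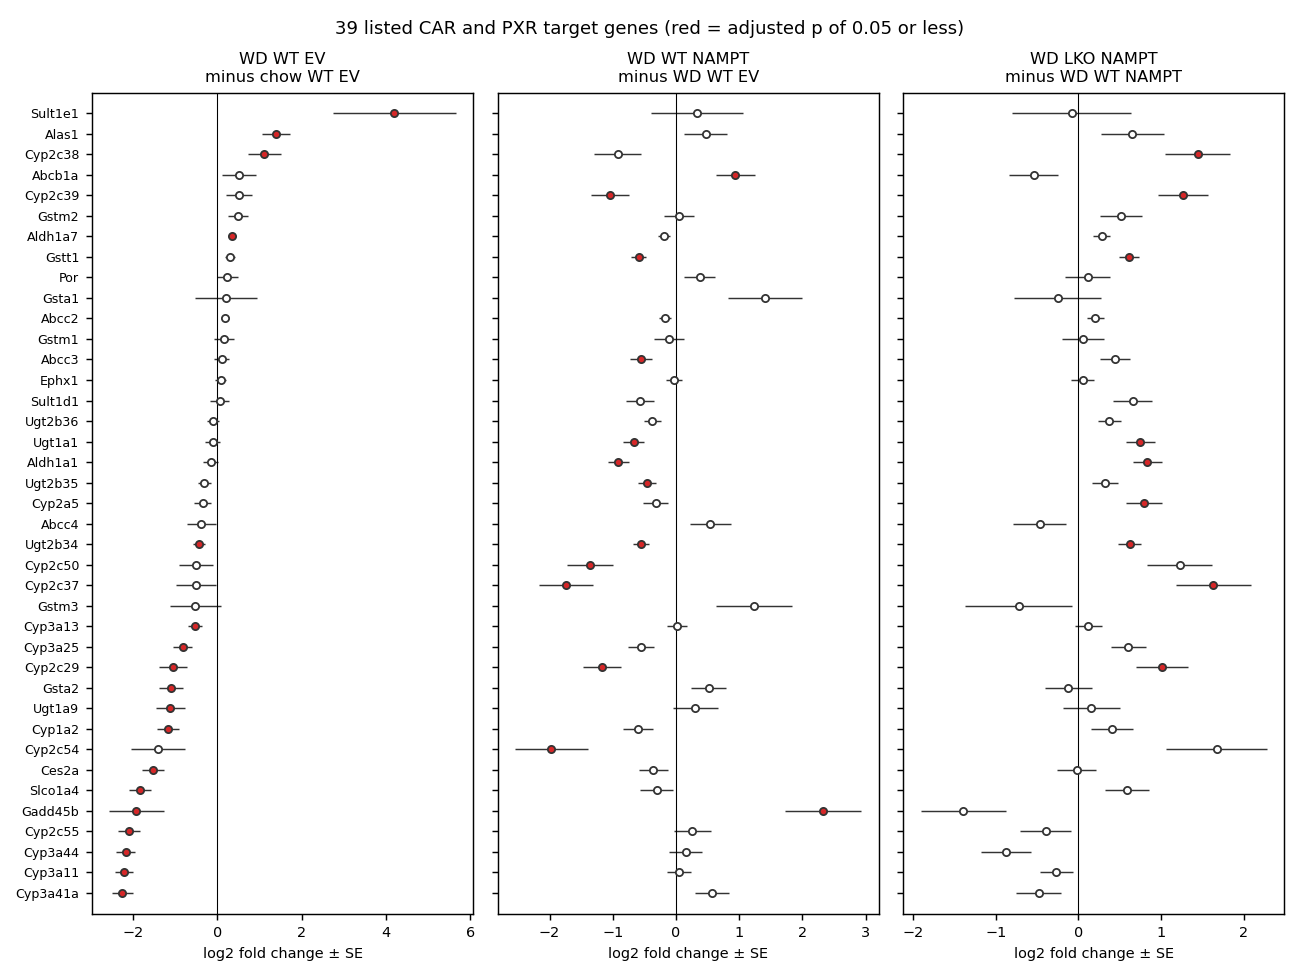
Log2 fold change with SE (x axis, own scale in each panel) of 39 listed CAR and PXR target genes, ordered by the diet comparison, in 3 comparisons that share libraries. Red points passed the limma test, 18 in the diet panel, 13 for NAMPT in WT and 9 between the NAMPT groups.

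Of 14 partners and regulators of the receptors, all tested, 2 were called with diet (14.3%, against 22% of all genes), and 6 had an unadjusted limma p under 0.05, as did 35.1% of all genes. Egfr, whose signal holds CAR inactive in the cytoplasm, fell from 1081 ± 191 to 299.96 ± 168 CPM (-2.12 ± 0.38, adjusted p = 0.000352) under every alternative. Nr0b2, the corepressor SHP, rose from 38.1 ± 17.7 to 51.4 ± 19.4 CPM (0.67 ± 0.23, adjusted p = 0.0363), a call that 7 of 9 alternatives did not make. None of the 14 was called by limma in the other comparisons.

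As Cyp2b9 and Cyp2b13 are female-predominant, genes of that kind and their male-predominant counterparts were read as well. Of 18 female-predominant genes 12 were tested, and 1 rose and 4 fell with diet (41.7% called, against 22% of all genes, 10.1% higher and 12% lower, with a list median of -0.03). The rise was in Hao2, a peroxisomal oxidase, at 0.0526 ± 0.0911 CPM in chow and 0.473 ± 0.353 CPM in WD WT EV (adjusted p = 0.0234). It passed the filter through Western diet libraries alone, and the call, lost with the quasi-likelihood test, without quality weights and without chow replicate 1 or 2, supports no direction. Cyp3a16 fell from 11.8 ± 1.18 to 2.69 ± 0.537 CPM (-2.13 ± 0.21, adjusted p = 1.1e-07) together with Cyp3a44 and Cyp3a41a, which the target list also holds, and the prolactin receptor Prlr. Of the 50-base windows of Cyp3a16, 10.7% occur in other genes, Cyp3a11 among them. The limits given above for Cyp3a44 and Cyp3a41a apply here too. Of 17 male-predominant genes, all tested, 7 fell and none rose (41.2% called, against the same background), and all 17 fitted values were negative, with a median of -0.92. The largest falls were in Selenbp2, which shares 43.9% of its windows with Selenbp1, from 683 ± 443 to 163 ± 209.7 CPM (-3.28 ± 0.69), in Cyp7b1, an oxysterol hydroxylase, from 298 ± 136 to 119 ± 94.1 CPM (-1.90 ± 0.52), and in Elovl3, a fatty acid elongase, from 537 ± 300.1 to 206 ± 56.1 CPM (-1.48 ± 0.48; adjusted p = 0.00146, 0.0103 and 0.0280). These 3 calls were lost with edgeR's quasi-likelihood test and without chow replicate 1 or 2. With NAMPT in WT livers 2 of the 17 fell, Elovl3 and Susd4 (11.8%, against 13.4% of all genes; adjusted p = 0.0155 and 0.0321). The Elovl3 call was lost in 6 of 9 alternatives and that of Susd4 in 7 of 9 and in 7 of 12 analyses without 1 library. Between the NAMPT groups Gstp1, which shares 33.7% of its windows with Gstp2 and other copies, stood lower in the libraries labelled LKO (-1.12 ± 0.20, adjusted p = 0.0107, not called without WD LKO NAMPT replicate 2 or 5). No gene of either list was called by limma between the EV groups, where 0.00711% of all genes were called. There 15 of 17 male-predominant genes had negative fitted values (median -0.52, 8 with an unadjusted p under 0.05) and 9 of 12 female-predominant genes positive ones (median 0.61, 6 with an unadjusted p under 0.05), against 6.33% of all genes with an unadjusted p under 0.05.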

How the data were processed

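Liver poly-A RNA was sequenced as single 50-base reads in 25 mice. The authors aligned reads to GRCm38 with STAR, and featureCounts assigned those with 1 alignment and 1 possible gene (versions 2.5.1a and 1.4.6-p5 in the submitters' processing notes), and whether strand was used is not given in the sources used here. The deposited files hold raw counts, together with CPM and RPKM values the authors computed from them. CPM and RPKM were recomputed here from the counts after TMM scaling, RPKM with the deposited lengths. Groups follow the sample titles, which name the vector NAMPT where a general treatment text names SIRT1. Replicates are separate libraries by their labels, and no 2 libraries of a group agreed within sampling noise (smallest chi-square per degree of freedom 15.6).

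Genes above 1 CPM in at least 2 libraries were kept, 4 ribosomal RNA genes were left out, and limma 3.58.1 (voomWithQualityWeights, TMM from edgeR 4.0.16, R 4.3.3) was fitted to all 25 libraries with 1 mean per group. A gene was called at a Benjamini-Hochberg adjusted p of 0.05 or less over all genes kept, and "rose" and "fell" mean called. Members and lists were chosen with earlier results of these data known. Named were all members, up to 3 called genes in each direction per list and comparison (for targets with none called, the 2 smallest p), and the 3 genes most like each member. Exact tests used log2(CPM + 0.5), two-sided. On simulated counts for the diet comparison, limma called 63 of 100 genes changed by 1 log2 unit and 94 of 100 changed by 2. The simulated libraries did not differ in quality as the real ones may. DESeq2 1.42.0 and edgeR's tests were alternatives. The floor is 3 counts, or 0.0911 to 0.149 CPM. Intervals on counts cover counting error only. The limma p-values set a difference against a spread between libraries that is estimated over all groups.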

Additional observations from a re-analysis of the deposited data

Results flagged for a closer look

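Within the 20 sets of 5 or 6 libraries examined (5 genes in 4 groups), 2 held a library far from the rest, and chance alone gives about 1 in 20. Cyp2b10 stood at 5.19 CPM in the library labelled WD LKO NAMPT replicate 3, while the other 4 of its group ranged from 0.263 to 1.26 CPM. The same library held the highest Cyp2b9, at 202.4 CPM, and the highest Cyp2b13 of its group, at 4.32 CPM. Nr1i2 stood at 73.7 CPM in WD WT EV replicate 7, while the other 5 ranged from 38.6 to 48.0 CPM. That library held the lowest Cyp2b9 of its group, at 1.61 CPM.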

How the results depend on the processing

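The members called with diet numbered 1 in the main analysis, in 5 of 9 alternatives and in all 9 analyses that left out a library, and 3 (Cyp2b9, Cyp2b10 and Cyp2b13) with edgeR's quasi-likelihood test, edgeR's exact test, DESeq2 and the replicate block. Between the EV groups the count was 0 throughout. Replicate numbers did not pair the animals, as same-numbered libraries correlated at -0.377 to 0.419, so a call gained or lost under the replicate block is not read as an effect. With that block Cyp2b9 and Cyp2b13 turned negative between the EV groups (-1.12 and -0.81), Nr1i2 stood at -0.15 with diet, and 20 targets were called with diet, 9 with NAMPT in WT, 6 between the NAMPT groups and 2 in the difference of NAMPT effects. Over all genes the fit with the block called 27.3%, 6.29%, 2.93% and 0.469% in the same order. Targets called with diet (18) numbered 7 with the quasi-likelihood test, 11 with the exact test, 12 with DESeq2, 11 without the filter and 8 without quality weights (9 to 18 leaving out a library). Those called with NAMPT in WT (13) numbered 3, 7, 7, 3 and 2 in the same order, and 5 when only the groups compared were fitted (2 to 18). Those called between the NAMPT groups (9) numbered 2, 5, 6, 2 and 2, and 0 with only these groups (0 to 16). In the difference of NAMPT effects (0) DESeq2 called 1, against 0.0924% of all genes, and the exact test could not be fitted. Leaving out a library gave 0 to 5, with 5 without WD WT NAMPT replicate 6, where 4.53% of all genes were called. Over all genes, the calls with diet (3101), NAMPT in WT (1890) and between the NAMPT groups (1120) numbered 1322, 428 and 45 with the quasi-likelihood test, 1466, 851 and 173 with the exact test, 1745, 1194 and 294 with DESeq2, 1970, 524 and 120 without the filter, 1201, 192 and 38 without quality weights, and 2649, 804 and 13 with only the groups compared. Why these counts moved was not tested. Nr1i2 changed sign with diet under the quasi-likelihood test, exact test, DESeq2 and no quality weights (-0.0199, -0.0198, -0.0137 and -0.0321) and between the EV groups under the same 4 (-0.0169, -0.0170, -0.0173 and -0.00184). Cyp2b13 did so between the EV groups under the first 3 (-0.14, -0.17 and -0.16). Leaving out a library gave -0.17 to 0.12 for Nr1i2 with diet, and -0.0565 to 0.11 for Nr1i2 and -0.000493 to 0.21 for Nr1i3 between the EV groups. Depth limits Cyp2b13, at 0 to 117 counts a library.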
